A study of Mus musculus with 14 samples.

Results

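The enteroendocrine genes of the mouse gut were read as 10 named members, *Chga*, *Chgb*, *Cck*, *Gcg*, *Pyy*, *Nts*, *Sct*, *Gip*, *Sst* and *Tph1*, of 36248 gene names on a one-colour expression array. Each member was chosen by name only, as a probe outside the control set whose gene name in the scanner files is that symbol, and each had exactly 1 probe. The series holds 14 arrays in 5 groups. Small intestine (n = 3) and colon (n = 3) came from mice labelled C57BL/6J. Adenomas (n = 3) and the non-tumor tissue beside them (n = 2) came from mice labelled APCmin/+, which carry 1 mutant copy of the *Apc* tumor suppressor and develop intestinal adenomas. CT26 (n = 3) is an undifferentiated mouse colorectal carcinoma cell line, and its arrays differ from the colon arrays in strain and culture as well as in transformation. No group received a treatment. Ages are not given in the labels, and the study describes its wild-type animals as adult. Per the study's sample list, the adenoma and adjacent arrays all come from pieces of 1 animal, so their spread is between tissue pieces and not between mice, while the small intestine arrays come from different mice. The same list puts 1 of the colon samples under an APCmin/+ animal, against its strain label.

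Enteroendocrine cells are rare secretory cells scattered through the gut epithelium. They pack peptide hormones or serotonin into granules together with chromogranins and release them when nutrients, bile acids or microbial products reach the lumen. Which hormone a cell makes depends on where it sits: cholecystokinin, GIP and secretin are known from the proximal small intestine, neurotensin, proglucagon peptides and peptide YY from the ileum and colon, and somatostatin and serotonin from the whole tract. In bulk tissue a lower signal can come from fewer cells of a type or from less RNA per cell, and these cannot be told apart here.

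Promoters are shown for 5 of the 7 genes called underexpressed in adenomas (values follow), *Chga*, *Chgb*, *Sst*, *Nts* and *Gcg*, which differ in a short motif. The sequences are the 250 bases before the RefSeq transcript start, read 5′ to 3′ on the gene's strand. Capitals mark TGACG, the core of the cAMP response element, searched on both strands (reverse CGTCA), and overlapping matches run together.
Chga (GRCm38.p6, chr12:102554691-102554940, plus strand): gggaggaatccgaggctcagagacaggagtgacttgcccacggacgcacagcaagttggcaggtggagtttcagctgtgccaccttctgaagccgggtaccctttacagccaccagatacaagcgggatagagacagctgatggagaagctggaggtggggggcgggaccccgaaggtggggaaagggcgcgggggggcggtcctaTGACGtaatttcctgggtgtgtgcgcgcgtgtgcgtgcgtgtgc
Chgb (GRCm38.p6, chr2:132781392-132781641, plus strand): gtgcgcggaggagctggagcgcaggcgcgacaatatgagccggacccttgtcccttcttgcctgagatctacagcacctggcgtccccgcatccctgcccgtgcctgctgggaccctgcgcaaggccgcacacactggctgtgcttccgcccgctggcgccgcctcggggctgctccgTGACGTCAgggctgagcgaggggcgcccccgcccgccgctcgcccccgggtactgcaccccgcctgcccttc
Sst (GRCm38.p6, chr16:23890845-23891094, minus strand): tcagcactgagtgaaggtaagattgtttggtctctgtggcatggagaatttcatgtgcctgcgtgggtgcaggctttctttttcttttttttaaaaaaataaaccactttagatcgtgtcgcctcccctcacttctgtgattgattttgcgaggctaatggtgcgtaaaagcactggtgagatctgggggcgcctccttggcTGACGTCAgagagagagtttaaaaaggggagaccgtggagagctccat
Nts (GRCm38.p6, chr10:102490419-102490668, minus strand): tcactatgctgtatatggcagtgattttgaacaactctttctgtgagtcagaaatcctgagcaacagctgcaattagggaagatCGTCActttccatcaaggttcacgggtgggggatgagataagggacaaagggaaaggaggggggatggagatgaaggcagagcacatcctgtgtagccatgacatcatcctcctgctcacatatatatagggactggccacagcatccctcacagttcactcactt
Gcg (GRCm38.p6, chr2:62483654-62483903, minus strand): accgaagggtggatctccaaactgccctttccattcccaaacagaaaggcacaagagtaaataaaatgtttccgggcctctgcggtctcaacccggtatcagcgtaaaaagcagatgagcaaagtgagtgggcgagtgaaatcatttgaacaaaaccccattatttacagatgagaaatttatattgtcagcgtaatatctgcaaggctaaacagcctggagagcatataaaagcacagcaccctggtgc
The full palindrome TGACGTCA stood in the windows of *Chgb* and *Sst*, starting at -72 and -48 from the transcript start, against 1.55% of 32851 mouse promoter windows of the same length. The core TGACG or its reverse stood in 7 of the 12 windows of the members (*Pyy* and *Tph1* have 2 windows each), covering 6 of the 10 genes, against 17.8% of all windows. The E-box CANNTG, a pattern that is its own reverse, was in 10 of the 12 windows of the members, covering 9 of the 10 genes, against 66.2% of all windows. *Gcg*, *Gip*, *Pyy* and *Sct* held no TGACG in this window, which says only that these letters are not there. *Pyy* and *Sct* were also called underexpressed in adenomas, and *Cck* and *Tph1*, which hold TGACG, were not called. A link between the motif and the adenoma differences was not tested.

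Signals are log2 of the processed scanner signal minus the 75th percentile of the same array, so that 0 is the level of that percentile. Between 46.9% and 58.2% of 55608 probes were well above background per array, which is the scanner software's test of a spot against its local background. A gene was called where the log2 fold change reached 1.2 with an adjusted p of at most 0.01 (limma, Benjamini-Hochberg over all probes tested). No spot of a member was saturated. Signals of different probes are not compared with each other, since probes differ in brightness. Where any array of the dimmer group failed that background test for a gene, the fold is a lower bound ("at least"): the brighter group's mean against the dimmer group's mean of, per array, the higher of its own signal and the lowest signal among probes well above background. The arrays lay on 2 slides, each holding several groups, and the slide was tried as a block.

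Colon replicate 3 stood apart from the other colon arrays. Over 20832 probes well above background on every array its correlation with the small intestine arrays (r = 0.951 to 0.969) was above that with the other colon arrays (r = 0.934 and 0.938), which correlated with each other at r = 0.985. *Fabp6*, the ileal bile acid binding protein, was at 11.1 in colon replicate 3 against 1.84 and 1.42 in colon replicates 1 and 2. *Car1*, a carbonic anhydrase of colonocytes, was at -3.09 in colon replicate 3 against 7.17 and 7.75. The colonocyte marker *B3galt5* ran with its label, at 4.62 in colon replicate 3 (5.003 and 5.49 in the others, -3.13 to -2.40 in small intestine). *Saa1*, of the same list, was at 9.38, but it was not called between colon and small intestine. The summed signal of 9 colonocyte markers, 9.81, was the highest of all arrays, but a sum is weighted towards its brightest genes. That sum was also 8.59 in small intestine replicate 1. The median of these markers, 2.44, lay below those of colon replicates 1 and 2 (5.59 and 5.49) and above those of small intestine (-0.84 to -0.15). The library labelled colon replicate 3 thus went against its label in some markers and with it in *B3galt5* among those named. The comparisons with colon are given with and without this array.

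**Figure D1:**
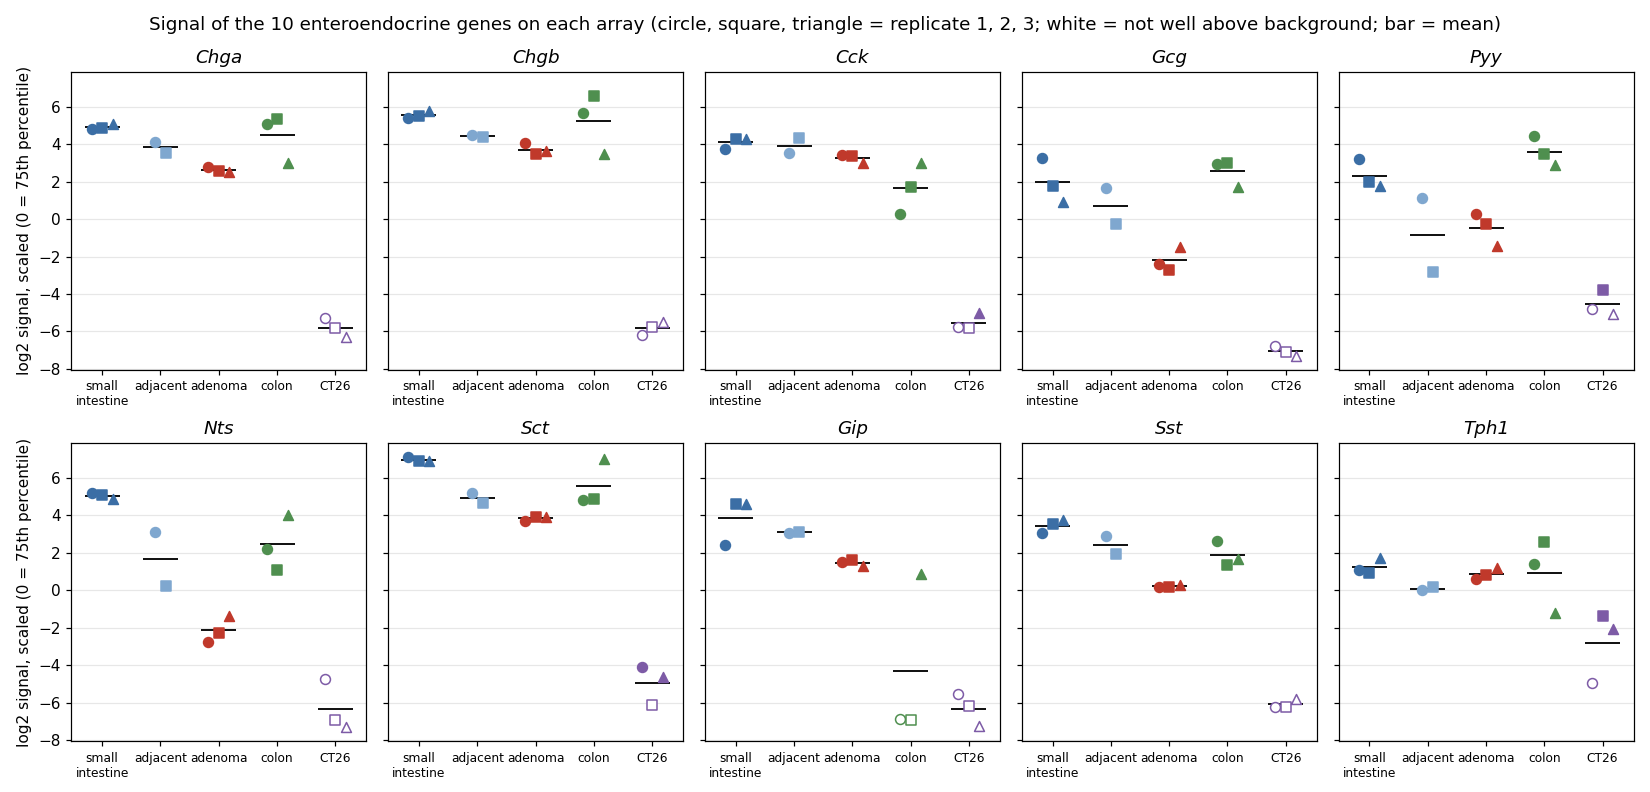
Log2 signal (y axis, 0 = 75th percentile of the array) of each of the 10 genes on each array, by group (x axis). Circles, squares and triangles are replicates 1, 2 and 3, white symbols are not well above background, and bars are group means. Adenoma arrays lie below all small intestine arrays for every gene but *Tph1*, and CT26 arrays lie lowest for all but *Gip*, where colon replicates 1 and 2 are also at background.

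Adenomas had lower signals than small intestine for all 10 enteroendocrine genes, and 7 of the 10 were called, all of them underexpressed (*Nts*, *Gcg*, *Sst*, *Sct*, *Pyy*, *Chga* and *Chgb*). Over all 22132 genes tested, 11.1% were called lower and 11.3% higher in this comparison. The log2 fold changes of the members had a median of -2.59, against -0.15 over all genes tested (-0.034 with quantile normalization and -0.033 in the authors' normalized table). For 9 of the 10 genes every adenoma array lay below every small intestine array. The share of all genes tested that separated in this way was not counted, so this describes the members only. *Gip* missed the adjusted p alone, while *Cck* and *Tph1* missed both the fold change and the adjusted p.

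The chromogranins are acidic granule proteins that mark enteroendocrine cells whatever hormone they make. *Chga* (probe at mm9 chr12:103803083-103803142, plus strand) was at 4.81, 4.85 and 5.07 in small intestine replicates 1 to 3, at 4.11 and 3.55 in adjacent tissue and at 2.78, 2.55 and 2.50 in adenomas. The 3 groups were fully separated in that order. *Chga* was underexpressed in adenomas against small intestine by 4.92-fold (log2 fold change -2.30 ± 0.17 SE, adjusted p = 0.000143), while the difference between adenoma and adjacent tissue (-1.22 ± 0.22) had an adjusted p of 0.0191.

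*Chgb* (chr2:132620703-132620762, plus strand, read by 10 replicate spots) followed the same order. Its signals were 5.42, 5.52 and 5.77 in small intestine, 4.49 and 4.37 in adjacent tissue and 4.06, 3.45 and 3.63 in adenomas. It was underexpressed in adenomas against small intestine by 3.63-fold (-1.86 ± 0.21, adjusted p = 0.000673), and this call was lost in a fit of all 5 groups together (adjusted p = 0.0246). Against adjacent tissue the difference was -0.71 ± 0.22 (adjusted p = 0.0719).

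*Nts* encodes neurotensin, a peptide of ileal N cells that slows gut motility, and had the largest difference of the 10 genes. Its probe (chr10:101944967-101945026, minus strand) was at 5.19, 5.06 and 4.89 in small intestine and at -2.77, -2.28 and -1.35 in adenomas, all of them well above background. The difference was 145-fold (log2 fold change -7.18 ± 0.35, adjusted p = 5.75e-05). The 2 adjacent arrays, at 3.11 and 0.22, lay between these groups and far from each other, and neither *Nts* comparison with adjacent tissue was called (adjusted p = 0.0356 against adenoma and 0.071 against small intestine).

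*Gcg*, the proglucagon gene from which L cells cut the incretin GLP-1 and the growth peptide GLP-2, was underexpressed in adenomas by 18-fold against small intestine (-4.17 ± 0.60, adjusted p = 0.00164). Its probe (chr2:62312685-62312744, minus strand, 10 replicate spots) was at 3.24, 1.78 and 0.93 in small intestine, at 1.65 and -0.26 in adjacent tissue and at -2.39, -2.70 and -1.47 in adenomas. Without adenoma replicate 2 its adjusted p was 0.0102.

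*Pyy* (chr11:101968311-101968370, minus strand) encodes peptide YY, the satiety peptide that L cells release together with GLP-1. It was at 3.21, 1.96 and 1.75 in small intestine and at 0.29, -0.27 and -1.43 in adenomas, a 6.85-fold difference (-2.78 ± 0.53, adjusted p = 0.0052). The call was lost in several alternatives: the adjusted p was 0.0125 with the slide as a block, 0.0236 in the fit of all 5 groups, 0.0198 without adenoma replicate 2, 0.0138 without adenoma replicate 3 and 0.0139 without small intestine replicate 2. Adjacent replicates 1 and 2 were at 1.11 and -2.83, on both sides of the adenomas. The difference between adenoma and adjacent tissue was 0.39 ± 1.16, and it became -1.58 without adjacent replicate 2.

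*Sct* encodes secretin, the S-cell hormone that stimulates bicarbonate secretion from the pancreas. Its probe (chr7:148464238-148464297, minus strand) was at 7.13, 6.88 and 6.92 in small intestine, at 5.22 and 4.65 in adjacent tissue and at 3.71, 3.92 and 3.90 in adenomas. It was underexpressed in adenomas against small intestine by 8.75-fold (-3.13 ± 0.16, adjusted p = 6.82e-05). *Sct* also gave the smallest adjusted p of the members between adjacent tissue and small intestine (-2.04 ± 0.25, adjusted p = 0.0415), which did not reach the threshold.

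*Sst* encodes somatostatin, the D-cell peptide that restrains the release of other gut hormones. Its signals (chr16:23889776-23889835, minus strand, 10 replicate spots) were 3.08, 3.55 and 3.74 in small intestine, 2.89 and 1.96 in adjacent tissue and 0.18, 0.19 and 0.29 in adenomas. The 3 adenoma pieces had an SD of 0.059. It was underexpressed 9.43-fold against small intestine (-3.24 ± 0.21, adjusted p = 0.000105) and 4.62-fold against adjacent tissue (-2.21 ± 0.29, adjusted p = 0.00875).

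*Cck* and *Gip* are the hormones of the proximal I and K cells, which release bile and digestive enzymes and potentiate insulin secretion after a meal. *Cck* (chr9:121398943-121399002, minus strand) was at 3.76, 4.29 and 4.27 in small intestine, 3.51 and 4.30 in adjacent tissue and 3.41, 3.35 and 3.01 in adenomas. Its difference between adenoma and small intestine was small and not called (-0.85 ± 0.21, adjusted p = 0.0147), although the arrays did not overlap.

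*Gip* is read by a probe whose ends lie on both sides of an intron (chr11:95886745-95887966, plus strand). It was at 2.44, 4.59 and 4.63 in small intestine, where replicate 1 was low, at 3.07 and 3.13 in adjacent tissue and at 1.49, 1.64 and 1.29 in adenomas. The difference from small intestine (-2.41 ± 0.57) had an adjusted p of 0.0115, and without small intestine replicate 1 it was called at -3.13 (adjusted p = 0.000167). The tight adjacent values gave *Gip* a call against adjacent tissue, 3.08-fold lower in adenomas (-1.62 ± 0.17, adjusted p = 0.00577).

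*Tph1*, the rate-limiting enzyme of serotonin synthesis in enterochromaffin cells, was the only member whose adenoma and small intestine arrays overlapped. Its probe (chr7:53902553-53902612, minus strand) was at 1.07, 0.94 and 1.72 in small intestine, at 0.031 and 0.16 in adjacent tissue and at 0.60, 0.83 and 1.197 in adenomas. The log2 fold change of adenomas was -0.37 ± 0.26 against small intestine (adjusted p = 0.273) and 0.78 ± 0.22 against adjacent tissue (adjusted p = 0.0554).

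**Figure D2:**
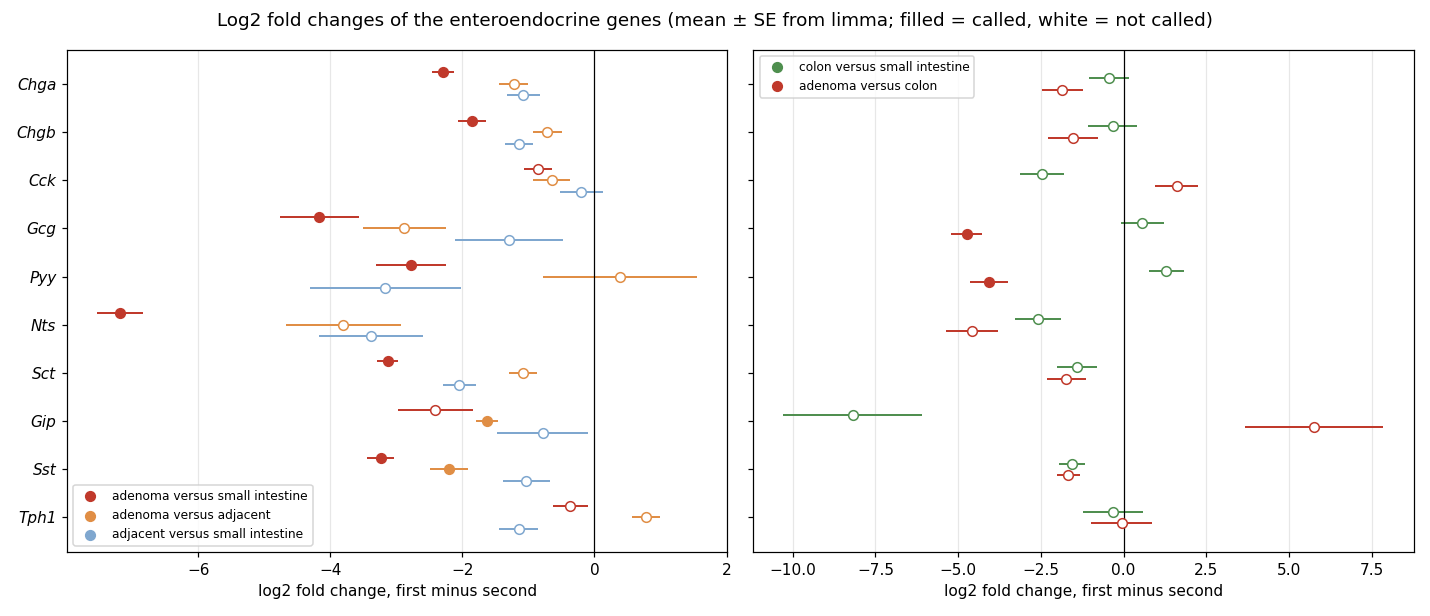
Log2 fold change (x axis, first group minus second, bars are the SE of limma) of each gene (y axis). Filled points were called. Adenomas against small intestine (left, red) run from -7.18 for *Nts* to -0.37 for *Tph1*, and on the right only *Gcg* and *Pyy* were called, both lower in adenomas than in colon. The wide bars of *Gip* on the right come with colon replicate 3, the only colon array on which it was well above background.

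Between adenomas and the tissue beside them, 2 of the 10 genes were called, *Gip* and *Sst*, both lower in adenomas. In this comparison 1.77% of 22233 genes were called lower and 2.39% higher. The members had a median log2 fold change of -1.16, against -0.035 over all genes. Adenoma and adjacent arrays overlapped for *Pyy* alone among the members, but the share of all genes without overlap was not counted. Only *Tph1* was higher in adenomas on every array. Both calls were lost with other settings: with the slide as a block the adjusted p was 0.014 for *Gip* (within-slide differences -1.68 and -1.49) and 0.0144 for *Sst* (-2.66 and -1.77). Without any 1 of adenoma replicates 1, 2 and 3 or adjacent replicate 1 neither gene was called, and without adjacent replicate 2 *Gip* was not (adjusted p = 0.0111 to 0.0363 for *Gip* and 0.011 to 0.0537 for *Sst* where lost). Without adjacent replicate 2 *Nts* (-5.25, adjusted p = 0.00615) and *Gcg* (-3.83, adjusted p = 0.00972) were called lower beside *Sst*.

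Between adjacent tissue and small intestine none of the 10 genes was called. All 10 log2 fold changes were negative, with a median of -1.15, against -0.096 over all genes tested. An unadjusted p under 0.05 in limma was reached by 7 of them, and the share of all genes reaching it was not counted. Only 0.00923% of 21673 genes were called higher in this comparison and 0% lower, so that calls were rare for any gene. The 2 adjacent arrays differed most in *Pyy*, *Nts* and *Gcg*, with SDs of 2.78, 2.04 and 1.35, and least in *Gip*, *Chgb* and *Tph1*, with SDs of 0.04, 0.086 and 0.09.

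The log2 fold changes of the hormone genes were also set against those of the chromogranins. When each gene was expressed relative to the mean log2 signal of *Chga* and *Chgb* on the same array, which removes the scaling between arrays, the difference between adenomas and small intestine was still -5.10 for *Nts*. It was -2.09 for *Gcg*, -1.16 for *Sst* and -1.05 for *Sct*. *Tph1* was higher relative to the chromogranins by 1.71 and *Cck* by 1.23. Their own log2 fold changes were negative (-0.37 and -0.85). These 2 relative values therefore follow from the larger falls of *Chga* and *Chgb* (-2.30 and -1.86). For these 6 genes the 3 adenoma values lay outside the 3 small intestine values, and for *Pyy* (-0.70) and *Gip* (-0.33) they overlapped. The share of all genes that would separate in this way was not counted. An exact permutation test over 3 against 3 arrays cannot go below 0.10, which these 6 genes reached (two-sided, 0.133 after adjustment over the 8 genes), so this test could not pass 0.05 at any size of difference.

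**Figure D3:**
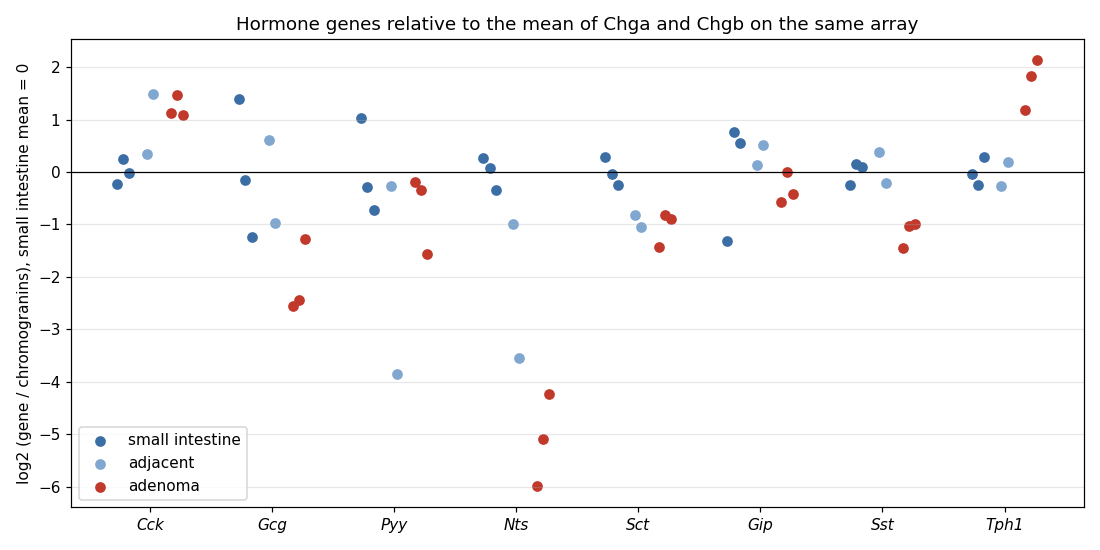
Log2 ratio of each hormone gene to the mean of *Chga* and *Chgb* on the same array (y axis, small intestine mean set to 0) for small intestine, adjacent tissue and adenoma. Adenoma points lie below all small intestine points for *Nts*, *Gcg*, *Sst* and *Sct*, by -5.10 on average for *Nts*, and above them for *Cck* and *Tph1*.

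Some members varied among the normal arrays along with markers of position in the gut, and others did not. In small intestine replicate 1, which had the highest *Gcg* and *Pyy* and the lowest *Gip* of its group, the summed signal of 6 ileum markers was 10.5 (log2), against 7.54 and 7.53 in replicates 2 and 3. The summed signal of 8 proximal markers was 7.69 there against 9.78 and 10.4. *Fabp6* was at 9.95, 1.60 and -1.74. *Nts* and *Sct* varied little over the same arrays (SD 0.15 and 0.14). Adjacent replicate 1, higher in *Nts*, *Gcg* and *Pyy* than adjacent replicate 2, likewise had the higher ileum markers (8.56 against 5.24) and the lower proximal markers (8.27 against 9.38), while *Gip* was at 3.07 and 3.13 on them.

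The adenomas had summed ileum markers of 2.72 to 3.38, below every small intestine and adjacent array, and 4 of the 6 ileum genes were called lower against small intestine (*Cubn*, *Fgf15*, *Slc51a* and *Slc51b*). *Cubn*, an ileal uptake receptor, fell 86.6-fold, and *Fgf15*, the ileal bile acid signal, was at least 30.6-fold lower, with 1 of 3 adenoma arrays well above background. Their summed proximal markers, 8.44 to 8.98, lay within the range of the small intestine arrays. The single proximal markers had a median log2 fold change of 1.33, and 1 of 8 was called, *Pdx1*, a factor of the duodenum and pancreas, at least 10.8-fold higher in adenomas. The part of position along the gut in the *Nts*, *Gcg* and *Pyy* differences was not tested. Summed epithelial markers were 10.6 to 10.8 in adenomas and 10.96 to 11.2 in small intestine, with 3 of the 8 markers called lower and 1 higher. Markers of other cell types also moved in this comparison, in which 11.1% of all genes tested were called lower and 11.3% higher. All 10 small intestine enterocyte markers had negative log2 fold changes, with a median of -2.32 and 5 called lower, among them *Slc5a1*, the glucose transporter of the brush border (24.7-fold), and *Sis*, the disaccharidase sucrase-isomaltase (24.4-fold). The 8 smooth muscle markers had a median of -1.53 with 2 called lower, and 8 of 10 proliferation genes were called higher. Lower signals in adenomas were thus also measured outside the enteroendocrine genes, and the part of these cell types in the differences was not tested.

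**Figure D4:**
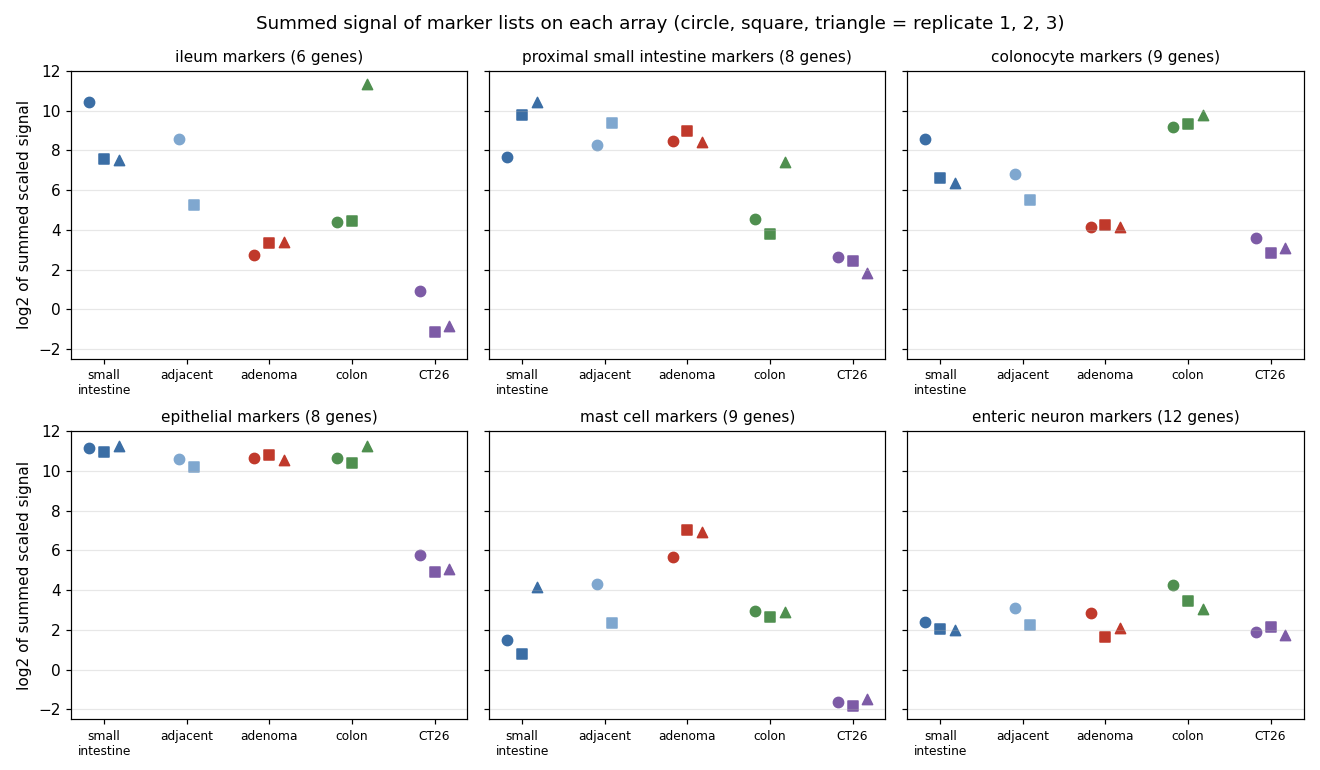
Log2 of the summed scaled signal (y axis) of 6 marker lists on each array, by group (x axis). Colon replicate 3 (green triangle) has the highest ileum signal of all arrays, 11.3, adenomas have low ileum and high mast cell signals, and CT26 has the lowest epithelial signals, 4.93 to 5.78.

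Other genes of the enteroendocrine program were described by their counts in the lists, with up to 3 named per list and comparison. Over all 22132 genes tested between adenomas and small intestine, 11.1% were called lower and 11.3% higher. Of 16 granule proteins and prohormone processing genes tested between adenomas and small intestine, 5 were called lower and 0 higher, with a median of -0.69. *Pcsk1*, the convertase that cuts prohormones, fell 5.03-fold (adjusted p = 0.000124) and *Snap25*, of the vesicle fusion machinery, 8.65-fold (adjusted p = 0.000914). *Scgn*, a calcium sensor of endocrine cells, was at least 2.95-fold lower and was well above background on none of the adenoma arrays.

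Of 15 enteroendocrine transcription factors tested, 5 were called lower and 2 higher, against 11.1% lower and 11.3% higher over all genes. *Neurod1*, which drives endocrine differentiation, was at least 3.0-fold lower (adjusted p = 0.00026) and not well above background on any adenoma array. *Hhex*, a factor of D cells that is also used in other gut cells, rose 13.8-fold (adjusted p = 0.000105). *Neurog3*, the factor that commits progenitors to the endocrine fate, was not called, with signals of 0.04, -0.04 and -0.91 in small intestine and 0.08, 0.02 and 0.36 in adenomas (log2 fold change 0.46 ± 0.28, adjusted p = 0.208). It is named here after its values were seen.

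Among 9 genes of serotonin synthesis and handling 3 were called lower and 1 higher, *Hdc*, the histamine-forming enzyme (named after its values were seen). Over all genes 11.1% were called lower and 11.3% higher. The serotonin transporter *Slc6a4* fell 18.9-fold, monoamine oxidase *Maoa* 5.95-fold and *Ddc*, the decarboxylase that follows *Tph1*, 2.99-fold. These differences stood beside a *Tph1* signal that was not called. The small intestine enterocyte markers were also lower in adenomas (median log2 fold change -2.32), and the part of enterocytes in these differences was not tested. Mast cells also express *Tph1*, and their markers were higher in adenomas: 6 of 8 tested were called, and the summed signal of the 9 listed genes was 5.68 to 7.04 in adenomas against 0.81 to 4.14 in small intestine and 2.34 and 4.32 in adjacent tissue. *Mcpt2* rose 58.8-fold and *Cpa3* at least 27.6-fold, the latter above background on only 1 of the small intestine arrays. The part of mast cells in the *Tph1* signal was not tested.

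Of 11 other gut hormone genes tested, 1 was called lower and 1 higher in adenomas, near the shares over all genes (11.1% lower and 11.3% higher). *Iapp*, the amylin gene, fell 16.7-fold (adjusted p = 0.000179) and *Npy*, a neuropeptide mostly of neurons, rose 13.8-fold (adjusted p = 0.000685). *Ghrl*, the ghrelin gene, is named after its values were seen and was at 1.53, 2.27 and 2.50 in small intestine and 2.06, 1.89 and 1.46 in adenomas. Of 11 enteric neuron markers 0 were called in either direction, and their summed signal was 1.67 to 2.84 in adenomas and 1.98 to 2.41 in small intestine. Enteric neurons also make peptides such as somatostatin, and their part was not tested. Of 4 pancreatic acinar markers tested 1, *Cela1*, was called higher in adenomas (39.7-fold). Of the 10 listed acinar genes 10, 7 and 4 were well above background in adenoma replicates 1, 2 and 3, and *Amy2a5*, an amylase gene named after its values were seen, was at 0.61, -0.93 and -6.01 there against -7.20 to -5.07 in small intestine.

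Receptor genes are given beside the shares over all genes between adenomas and small intestine, 11.3% called higher and 11.1% lower. Of 12 hormone receptors tested, *Sstr1*, a somatostatin receptor, fell 5.72-fold and *Npy2r*, a receptor of PYY and NPY, rose at least 5.86-fold, with 0 of 3 small intestine arrays above background. Of 9 nutrient and bile acid receptors tested, 3 were called lower, *Tas1r3* of the sweet and umami receptor among them (2.65-fold), and the irritant channel *Trpa1* of enterochromaffin cells rose 5.26-fold.

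Against colon the picture depended on colon replicate 3. With all arrays, 0 of the 10 genes were called between colon and small intestine, where 0.00484% of 20680 genes were called lower and 0.00484% higher. An unadjusted p under 0.05 in limma was reached by 5 members, and the share of all genes reaching it was not counted. Without colon replicate 3, 4 were called, all lower in colon, against 3.91% of 22638 genes called lower and 3.34% higher.

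*Gip* and *Cck*, hormones of the proximal gut, had lower mean signals in colon than in small intestine. *Gip* was well above background on 1 of the 3 colon arrays only, colon replicate 3 (0.89), and the others read -6.89 and -6.91. It was at least 118-fold lower in colon than in small intestine with all arrays (adjusted p = 0.105) and at least 452-fold lower without colon replicate 3 (adjusted p = 0.000597). *Cck* was at 0.25, 1.71 and 2.999 in colon. Its log2 fold change against small intestine was -2.45 ± 0.66 (adjusted p = 0.111) and became -3.13 (adjusted p = 0.0079) without colon replicate 3.

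*Nts* (2.21, 1.10 and 4.04 in colon) and *Sct* (4.84, 4.86 and 7.01) were called lower than in small intestine only without colon replicate 3, by 10.5-fold (adjusted p = 0.00303) and 4.36-fold (adjusted p = 0.00268). On both genes colon replicate 3 was the highest colon array. With it the log2 fold changes were -2.60 ± 0.70 and -1.40 ± 0.60.

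*Gcg* and *Pyy* had their highest group means in the colon. *Pyy* was at 4.42, 3.48 and 2.89 there, 1.29 ± 0.53 above small intestine with all arrays (adjusted p = 0.209) and 1.64 without colon replicate 3 (adjusted p = 0.0672). *Gcg* was at 2.92, 3.02 and 1.73 and overlapped with small intestine. Neither difference passed the threshold.

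The chromogranins were at 5.07, 5.33 and 2.99 (*Chga*) and at 5.67, 6.57 and 3.48 (*Chgb*) in colon. Colon replicate 3 was the lowest in both, and without it the log2 fold changes against small intestine turned from -0.44 to 0.29 and from -0.33 to 0.55. *Tph1* turned likewise, from -0.32 to 0.74, with colon values of 1.38, 2.59 and -1.198. *Sst* (2.65, 1.35 and 1.67) had a log2 fold change against small intestine of -1.57 ± 0.39 with all arrays and -1.46 without colon replicate 3 (adjusted p = 0.101 and 0.0568).

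With all arrays, the members called between adenomas and colon were *Gcg* and *Pyy*. *Nts* had a log2 fold change of -4.59 ± 0.78 but missed the adjusted p (0.017). *Gcg* was 26.8-fold lower (-4.74 ± 0.47, adjusted p = 0.00385) and *Pyy* 16.7-fold lower (-4.07 ± 0.56, adjusted p = 0.0094), the 2 of 10 genes called, where 1.63% of 21896 genes were called lower and 2.07% higher. Neither was called with the slide as a block (adjusted p = 0.0131 and 0.0348), nor without any 1 array other than colon replicate 3. Within slides the differences were -4.95 and -5.02 for *Gcg* and -4.05 and -3.92 for *Pyy*.

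Without colon replicate 3, 6 of the 10 genes were called between adenoma and colon, where 6.68% of 23104 genes were called lower and 5.03% higher. *Chga* (6.03-fold), *Chgb* (5.29-fold), *Gcg* (35.6-fold), *Pyy* (21.4-fold) and *Nts* (13.8-fold) were underexpressed in adenomas. *Gip* was overexpressed, at least 85.1-fold (adjusted p = 5.3e-05), and *Cck* was higher by 2.28 on the log2 scale (adjusted p = 0.0151). With all arrays *Gip* was at least 22.1-fold higher in adenomas with an adjusted p of 0.132.

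Of the 9 members tested between CT26 cells and colon, 8 were called lower in CT26, where 16.2% of 21735 genes were called lower and 21% higher. *Chga*, *Chgb*, *Gcg*, *Nts* and *Sst* were well above background on none of the CT26 arrays. Against colon *Chga* was at least 696-fold lower, *Chgb* at least 1190-fold, *Gcg* at least 185-fold, *Nts* at least 172-fold and *Sst* at least 117-fold. *Cck* and *Pyy* were well above background on 1 CT26 array each and were at least 95.5-fold and 270-fold lower. *Sct* passed on 2 CT26 arrays, at -4.10 and -4.61, and was at least 1178-fold lower. The adjusted p of these 8 genes ran from 2.3e-06 to 0.000156. Without colon replicate 3 the bounds were 1160-fold for *Chga*, 2187-fold for *Chgb*, 59.9-fold for *Cck*, 99.4-fold for *Nts* and 715-fold for *Sct*, while those of *Gcg*, *Pyy* and *Sst* moved by less than 1.5 times. Other genes of the program ran the other way: *Ptprn*, a granule membrane protein, was called 20.7-fold higher in CT26, and the summed granule signal was 6.40 to 6.80 in CT26 and 6.43 to 6.82 in colon, with 7 of 15 granule genes called lower and 2 higher.

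*Tph1* was at -4.97 (not above background), -1.35 and -2.08 in CT26 replicates 1 to 3. It was at least 12.1-fold lower than in colon, but with an adjusted p of 0.0297 it was not called. *Gip* was not tested, since neither group had it well above background on all arrays. Without colon replicate 3, 9 genes were called, *Tph1* included (at least 25.3-fold, adjusted p = 0.00594), where 19.4% of 23224 genes were called lower and 20.1% higher. All 8 epithelial markers were also called lower in CT26, and their summed signal was 4.93 to 5.78 against 10.4 to 11.3 in colon.

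The order of the group means was small intestine, colon, adjacent tissue, adenoma, CT26 for *Chga*, *Chgb*, *Nts* and *Sct*. Small intestine and colon arrays overlapped for all of these but *Nts*, colon and adjacent arrays overlapped for all of them, and the later neighbours were apart. For *Cck* and *Gip* the adenomas came before the colon, with no overlap between them. *Gcg* and *Pyy* were the genes whose order began with the colon, in overlap with small intestine. *Sst* had the colon after adjacent tissue, in overlap with it and above the adenomas. *Tph1* had adenomas above adjacent tissue, without overlap. Without colon replicate 3 the place of the colon changed for 6 genes: it came first for *Chga*, *Chgb* and *Tph1*, after adjacent tissue for *Nts* and *Sct*, and last, in overlap with CT26, for *Gip*.

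Genes with the pattern most like that of each member were taken over the 11 tissue arrays by Pearson's r, among 22653 genes. These arrays share groups and, for adenomas and adjacent tissue, an animal, so that high values are common. *Chga* was most like *Lmx1a* (r = 0.976), an enteroendocrine transcription factor, and *Chgb* had *Chga* among its 3 closest genes (r = 0.962). *Gip* was closest to *Ms4a10*, *Tm4sf5* and *Lct*, the lactase gene (r = 0.993 to 0.994). *Nts* was closest to *Peli1* (r = 0.988), *Sct* to *Edem1* (r = 0.992), *Sst* to *Plbd1* (r = 0.982), *Cck* to *Rilpl2* (r = 0.979), *Gcg* to *Ccl6* (r = 0.983), *Pyy* to *Rasd2* (r = 0.966) and *Tph1* to *Fam221a* (r = 0.941). Over the 10 arrays without colon replicate 3 the closest gene stayed the same for *Cck*, *Pyy* and *Nts*, *Lmx1a* was 7th for *Chga* (r = 0.976), and *Fam221a* was 28th for *Tph1* (r = 0.884).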

How the data were processed

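RNA of whole tissue or cells was labelled with Cy3 and hybridised to 14 one-colour Agilent mouse arrays. Per the file headers, the deposited scanner intensity (gProcessedSignal) was background-subtracted by Feature Extraction 10.7.3.1 with mm9 annotation. The authors also deposited a table of normalized log2 values, used here as an alternative only. Its fold changes and p-values of the authors' own comparisons were not used, nor were 28 of its per-sample columns (flags and detection calls). Control and outlier spots were left out, spots of a probe were averaged, and log2 intensity minus the array's 75th percentile was taken for 55608 probes (26548 named by accession, 29060 by the file's name, 36248 names). A gene with several probes was represented by its brightest.

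Each comparison was fitted on its 2 groups with limma 3.58.1 (R 4.3.3), over probes that passed the scanner software's background test on all arrays of 1 or both groups. Calls needed a log2 fold change of 1.2 and a Benjamini-Hochberg adjusted p of 0.01. The ratio to chromogranins was tested exactly (scipy 1.17.1). The script was tested on simulated data with 200 changed probes. Promoters are RefSeq sequences of GRCm38.p6, while probe positions are mm9. The members and gene lists were chosen with earlier results of these data known. In each list, up to 3 called genes per comparison with the largest change were named, with the 3 genes most correlated with each member over 11 tissue arrays; others are said to be chosen after their values were seen. A gene that the rule names is not reported here. The alternatives tried were quantile normalization, the normalized table of the authors, normexp (offset 50) on the raw signals, other probe filters, all 5 groups in 1 fit, slide and replicate number as blocks, looser thresholds and leaving out each array. The number of arrays limits the precision, and p-values measure only the spread between these samples.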

Additional observations from a re-analysis of the deposited data

How the results depend on the processing

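The counts of enteroendocrine genes called moved with the processing. Between adenoma and small intestine they ran from 5 to 8 (7 reported), over the other settings and without 1 array alike. Between adenoma and adjacent tissue (2 reported) 0 were called with all probes tested, with all 5 groups in 1 fit, with the slide as a block and with the replicate block, 6 at the looser thresholds, and 0 to 3 without 1 array. Between adjacent tissue and small intestine (0 reported) 1 was called at the looser thresholds and 0 without any 1 array. Between colon and small intestine (0 reported) 1 was called with all 5 groups in 1 fit and 0 to 4 without 1 array, 4 being the count without colon replicate 3. Between CT26 and colon (8 reported) 0 were called when probes had to be well above background in both groups, which leaves out the called members, and 8 to 9 without 1 array. Between adenoma and colon (2 reported) 1 was called with quantile normalization and with all probes tested, 4 with all 5 groups and at the looser thresholds, 0 with the slide as a block and with the replicate block, and 0 to 6 without 1 array. Over all genes, calls between adenoma and adjacent tissue went from 531 higher and 394 lower to 130 and 32 with the slide as a block and 67 and 13 with the replicate block, and between adenoma and colon from 453 and 356 to 74 and 11 and to 43 and 8. At the looser thresholds they were 1264 and 1518 between adenoma and adjacent tissue. They were 217 and 134 between adjacent tissue and small intestine, and 1262 and 1151 between adenoma and colon. Without adenoma replicate 2, 0 and 0 genes were called between adenoma and adjacent tissue. The calls over all genes thus moved with the settings as well. Replicate numbers of the source names did not pair the samples (r of same-numbered deviations from -0.32 to 0.29). The titles number the adjacent pieces differently. A replicate block by title number, chosen after seeing the data, called 0 members and 0 genes in all between adenoma and adjacent tissue (r = 0.036 and 0.026) and 0 and 0 between adjacent tissue and small intestine (r = -0.14 and 0.21). Signs turned for *Pyy*, adenoma versus adjacent (-1.58 to 2.36 without 1 array). They turned for *Cck*, adjacent versus small intestine (0.23 in the authors' table, 0.21 with quantile normalization, -0.60 to 0.20 without 1 array). For colon versus small intestine they turned for *Chgb* (0.042 in the authors' table, 0.046 with quantile normalization, 0.012 with the slide block, -0.997 to 0.55 without 1 array), *Tph1* (0.18 with the slide block, -1.15 to 0.74 without 1 array) and *Chga* (-0.88 to 0.29 without 1 array). For adenoma versus colon *Tph1* turned (-1.11 to 0.78 without 1 array). The causes were not tested. Of 933 alternative values of single genes, 848 kept direction and side of the threshold. Both counts include a setting that accepted any probe of a gene. As each member had exactly 1 probe, that setting repeated the main fit and could not differ from it. With 2 or 3 arrays a group, and adenoma and adjacent pieces from 1 animal, spread between mice is not covered there.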
